A study of Mus musculus with 35 samples.

Results

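OA is a factor combination carried by mouse cells that were infected with reprogramming factors and grown in iCD1, a reprogramming medium, without the growth factor BMP4. Its change from day 1 to day 6 was read from 5 of the 35 RNA sequencing libraries of the series, chosen by their titles: 2 libraries of OA at day 1 and 3 of OA at day 6. Poly-A RNA was sequenced. The labels call all of these samples reprogramming cells, give their treatment as none, and neither expand the name OA nor name the cell the cultures were started from. Oct4, Kdm2b and PRC1.1, a variant Polycomb complex, are named in the title and the design text of the series. The combinations ODR (2 libraries at day 1 and 2 usable at day 6) and OB (2 at day 1 and 4 at day 6), grown in the same medium and also without BMP4, serve as comparisons, and single libraries of mouse embryonic stem cells (mESC) and mouse embryonic fibroblasts (MEF) give reference levels. No source says whether replicates came from separate cultures, so p-values reflect differences among libraries that may be technical.

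Oct4, encoded by Pou5f1, is a transcription factor of pluripotent cells and a classical reprogramming factor. Kdm2a and Kdm2b are histone lysine demethylases that bind unmethylated CpG-rich DNA through a CXXC zinc finger, and Kdm2b brings PRC1.1, a complex that ubiquitinates histone H2A, to CpG islands. Fibroblasts that are being reprogrammed are known to lose contractile and mesenchymal genes early, while genes of the pluripotency network come on late and in few cells.

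Values are normalized tag counts per gene, whole numbers with a shared ceiling of 18690, and the 5 columns sum to between 4366490 and 4390610. They are not read counts, and the sequencing depth is unknown. The pair of day 1 libraries correlated at r = 0.97 over the genes tested, the day 6 libraries also at 0.97, and libraries of different days at 0.83 to 0.87. Values of a gene are given in the order of the replicate numbers. Log2 fold changes are day 6 over day 1 on the log2(value + 1) scale, with the standard error (SE) of the limma fit, and a gene was called at a Benjamini-Hochberg adjusted p below 0.05 over 12526 genes. At high values the table moves in shared steps, so folds there are coarse. The sources used here do not say whether counting used strand, and 25 of the 170 genes named overlap another protein-coding gene in the annotation, among them Gng3 (Bscl2), Tagln (Pcsk7), B2m (Patl2), Cdc20 (Elovl1), Vcl (Ap3m1), Igfbp7 (Polr2b) and Pcsk1n (Eras). Reads of such pairs may be shared.

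Kdm2a stood far higher in OA than in the other combinations. It was 18690 and 9294 at day 1 and 18690, 18690 and 18690 at day 6 in OA, while the ODR and OB libraries of these days lay between 783 and 1254. The lower day 1 library, replicate 2, still stood far above every ODR and OB library. The change with time was 0.50 ± 0.85 (adjusted p = 0.67) and bounds nothing, because both days hold values at the ceiling. Pou5f1 was listed at the ceiling of 18690 in all 5 OA libraries, against 3988 in mESC and 0 in MEF. Kdm2b was 270 and 259 at day 1 and 202, 232 and 236 at day 6 and missed the test at -0.25 ± 0.25 (adjusted p = 0.47). The labels do not say which transcripts come from the introduced factors, and the table does not separate these from the cells' own.

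Gng3, a gamma subunit of heterotrimeric G proteins found mainly in neurons, was higher at day 6 in OA. Its values were 156 and 110 at day 1 and 1016, 649 and 829 at day 6, with no overlap, which gave 2.63 ± 0.59 (adjusted p = 0.0019). In ODR the same gene was 5 and 8 at day 1 and 80 and 122 at day 6, and in OB 51 and 23 at day 1 and 696, 492, 592 and 581 at day 6. The OA libraries lay above those of ODR at both days and above the OB libraries at day 1, whereas at day 6 the OA and OB ranges overlapped. The day 6 over day 1 changes were 3.76 ± 0.64 in ODR and 4.05 ± 0.56 in OB, and neither difference from OA passed the interaction test. Gng3 lies at chr19:8836933-8839194, minus strand in GRCm38.

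Between day 1 and day 6, 4701 of the 12526 genes (37.5%) were called, 2284 higher (18.2%) and 2417 lower (19.3%). Changes of at least 2-fold were called for 1094 genes upward and 983 downward, and of at least 16-fold for 94 and 50. The median change of all genes was -0.03. Libraries of the days did not overlap for 7924 genes (63.3%). Absence of overlap, mentioned below for single genes, adds little to a call, since it held for 4679 of the 4701 genes called. The count fell to 2667 when day 1 replicate 2 was left out, and was 3205 without day 1 replicate 1. In these fits the lone day 1 library is assumed to vary like the other groups. The filter was applied again in each fit, so genes near 0 at day 6, such as Prl8a6, were not tested without a day 1 library. Smaller list counts in such fits, given below, can partly reflect this. Because RNA came from whole cultures, fewer cells of a type and less RNA per cell cannot be told apart.

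**Figure D1:**
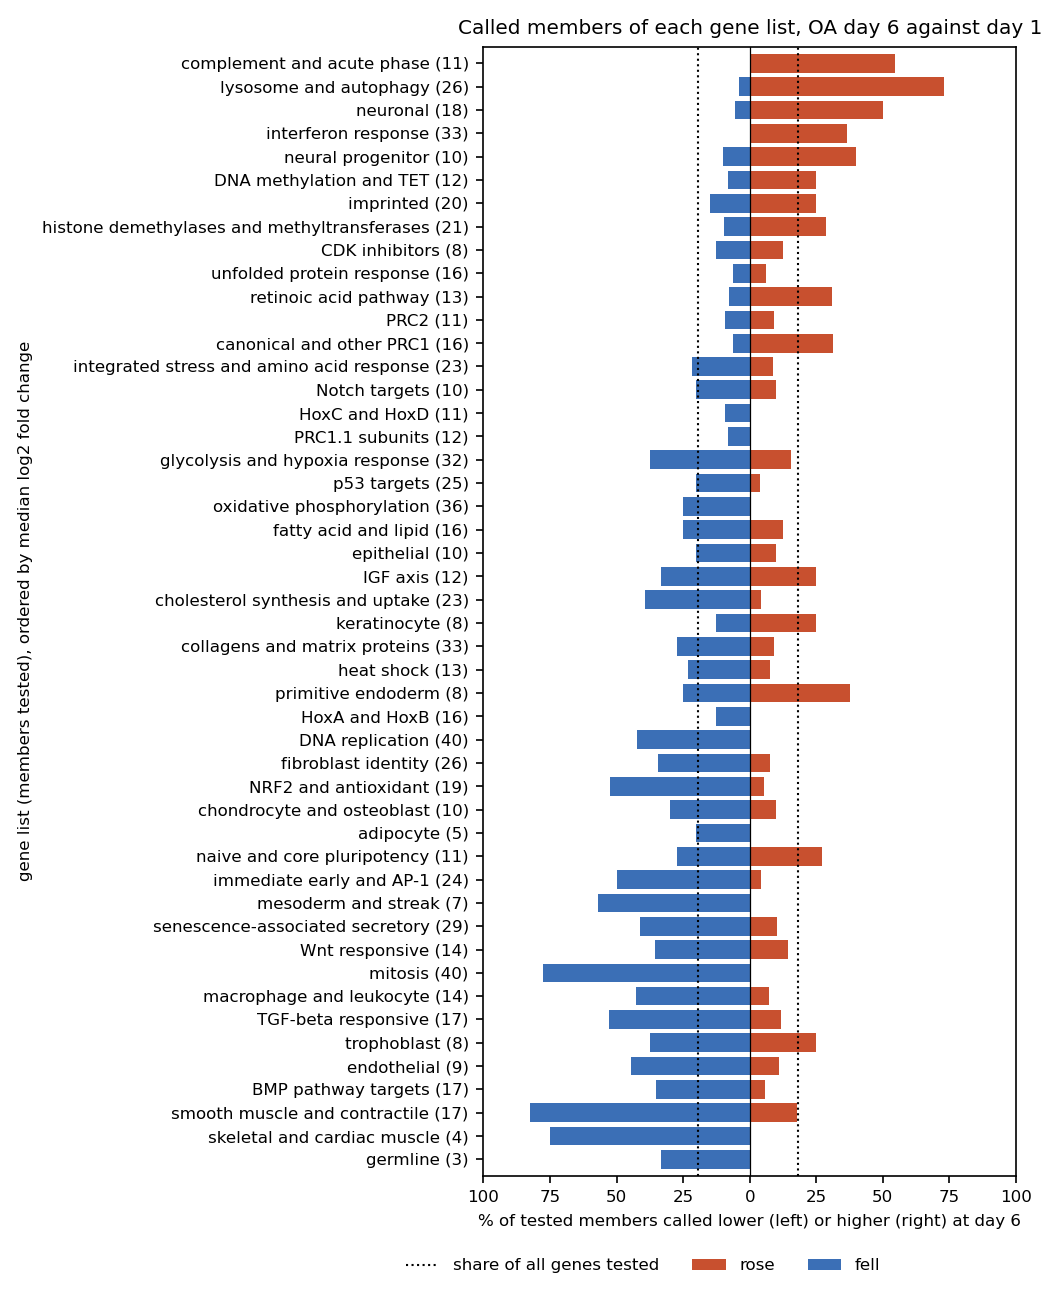
Share of the tested members of each gene list that were called lower (bars to the left) or higher (bars to the right) at day 6 in OA, in percent, with the number tested in brackets and lists ordered by median log2 fold change. The dotted lines mark the share among all genes, 19.3% lower and 18.2% higher; the contractile and mitosis lists reach farthest to the left of the lists with at least 10 members, and the lysosome list farthest to the right.

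The largest falls were in muscle, placental and epithelial genes. Prl8a6, a prolactin-family hormone of the placenta, was 148 and 137 at day 1 and 0, 0 and 0 at day 6. Cnn1 (calponin, an actin-binding protein of smooth muscle) was 236 and 339 at day 1 and 2, 5 and 2 at day 6, a change of -6.23 ± 0.75 (adjusted p = 5.9e-06). Acta1, the skeletal muscle actin, was 122 and 253 at day 1 and 0, 0 and 8 at day 6. All day 6 libraries lay far below both day 1 libraries for each of these genes. Krt19, a keratin of simple epithelia, was 311 and 417 at day 1 and 11, 8 and 10 at day 6, or -5.09 ± 0.82 (adjusted p = 1.1e-04). Col2a1, the main collagen of cartilage, was 182 and 300 at day 1 and 5, 1 and 8 at day 6, or -5.62 ± 0.80 (adjusted p = 3.2e-05). Atp2b2, a plasma membrane calcium pump, was 172 and 122 at day 1 and 3, 2 and 2 at day 6, or -5.47 ± 0.54 (adjusted p = 6.3e-07). Slc38a4, an imprinted amino acid transporter, kept a low but measurable level, with 935 and 1106 at day 1 and 40, 36 and 48 at day 6. Prl8a6 was listed at 0 in every day 6 library, so it has no fold.

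The largest rises began from values near 0. Kcnj5, a potassium channel subunit, was 0 and 1 at day 1 and 364, 274 and 296 at day 6, a change of 7.78 ± 0.55 (adjusted p = 1.7e-08). Slc8a2, a sodium-calcium exchanger of neurons, was 3 and 0 at day 1 and 270, 224 and 274 at day 6, or 7.0 ± 0.64 (adjusted p = 3.1e-07). Thbs4, a matrix thrombospondin, was 10 and 2 at day 1 and 789, 608 and 597 at day 6, or 6.84 ± 1.20 (adjusted p = 2.5e-04). At day 1 these genes were at or close to 0, and their fitted folds depend on the 1 added before the log. Among the next genes Adcy1 and Nt5e reached higher levels, and Lrat too was close to 0 at day 1. Adcy1, a calcium-stimulated adenylyl cyclase, was 25 and 17 at day 1 and 2219, 1897 and 1938 at day 6, or 6.54 ± 0.29 (adjusted p = 5.8e-11). Nt5e, the ectonucleotidase CD73, was 11 and 16 at day 1 and 1490, 1378 and 1001 at day 6, or 6.48 ± 0.35 (adjusted p = 8.2e-10). Lrat, which esterifies retinol for storage, was 7 and 5 at day 1 and 483, 620 and 618 at day 6, or 6.36 ± 0.43 (adjusted p = 7.0e-09). The same 6 genes rose in ODR and OB, where Adcy1 changed by 5.28 ± 0.32 and 4.92 ± 0.28 and Nt5e by 6.69 ± 0.39 and 7.0 ± 0.34.

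**Figure D2:**
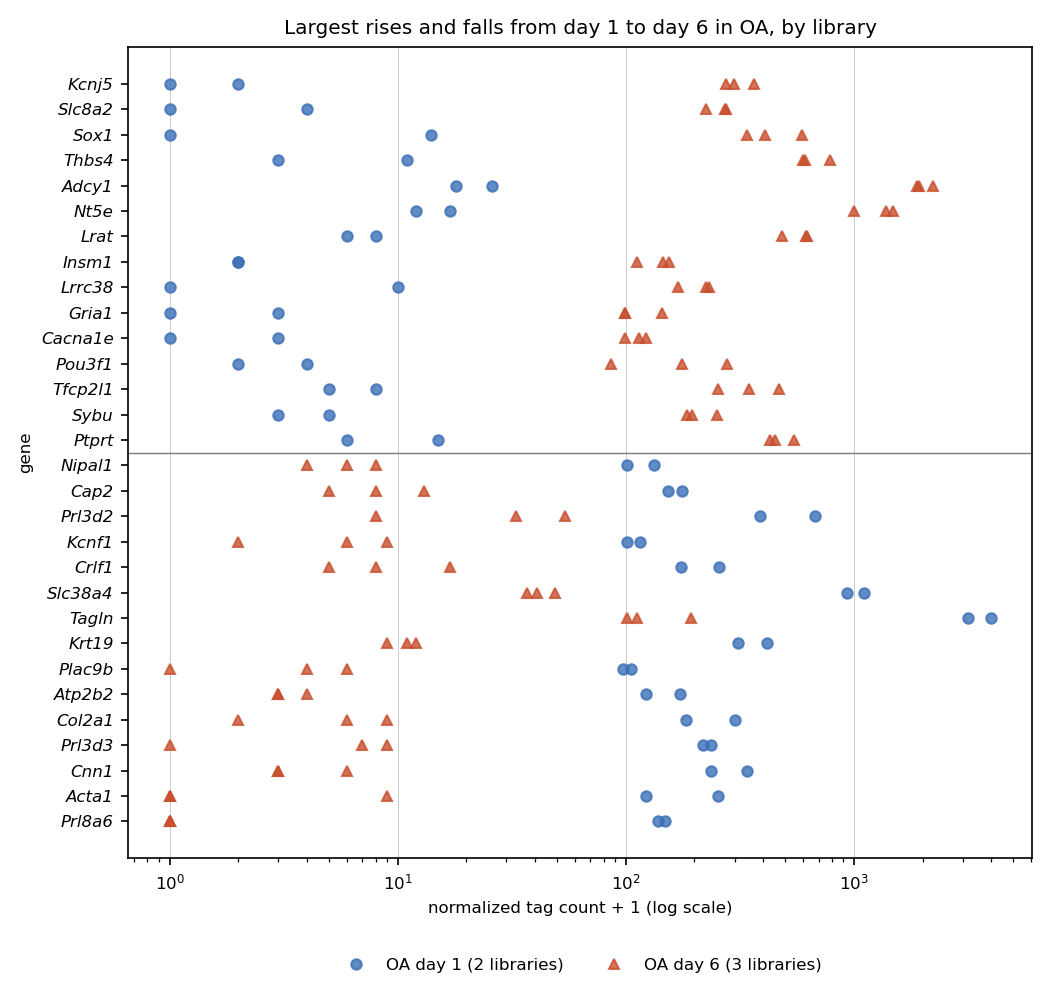
Normalized tag count plus 1 (log axis) of the 15 genes with the largest rises and the 15 with the largest falls in OA, chosen by rule from these changes, with circles for the 2 day 1 libraries and triangles for the 3 day 6 libraries. The rule took only genes whose libraries of the days lie apart, so that separation is not a finding. Adcy1 moves from 25 and 17 to 1897 or more, and Tagln from 3170 or more to 193 or less.

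Contractile genes fell as a group, with a small set of members moving the other way. Of 17 genes of smooth muscle and actomyosin contraction, 14 were called lower and 3 higher (82.4% and 17.6%), and the median change was -1.34. Over all genes 19.3% were called lower and 18.2% higher, and the median was -0.03. The medians of the contractile genes were -1.13 in ODR and -1.54 in OB. Tagln, an actin cross-linker of smooth muscle and stressed fibroblasts, was 3170 and 3989 at day 1 and 111, 100 and 193 at day 6, or -4.77 ± 0.55 (adjusted p = 3.5e-06). Acta2, smooth muscle actin, was 6244 and 9301 at day 1 and 486, 356 and 430 at day 6, or -4.18 ± 0.63 (adjusted p = 6.0e-05). Myl9, the regulatory light chain of smooth muscle myosin, was 922 and 1086 at day 1 and 72, 82 and 90 at day 6, or -3.61 ± 0.53 (adjusted p = 4.4e-05). In all of them both day 1 libraries lay far above the day 6 range. Tpm2 (tropomyosin), Lmod1 (an actin nucleator), Myh11 (smooth muscle myosin heavy chain) and Smtn (smoothelin) fell by 2.67, 3.21, 2.51 and 1.76. Broadly expressed members fell less, namely Cald1 (caldesmon) by 1.34, Vcl (vinculin) by 1.12 and Tpm1 by 1.09. Acta2 and Actg2 are near-identical to other actins, and the split of reads among them is uncertain.

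The 3 contractile genes that rose were Des, Mylk and Myocd. Des (desmin, the muscle intermediate filament) was 178 and 246 at day 1 and 2010, 1105 and 1592 at day 6, or 2.86 ± 0.50 (adjusted p = 2.3e-04). Mylk, the kinase of the myosin light chain, was 28 and 23 at day 1 and 173, 171 and 114 at day 6, or 2.52 ± 0.29 (adjusted p = 2.9e-06). Myocd, a coactivator of the transcription factor Srf, was 5 and 8 at day 1 and 70, 36 and 33 at day 6, or 2.60 ± 0.37 (adjusted p = 3.1e-05). Their day 1 and day 6 libraries did not overlap. The Srf transcript itself was 314 and 294 at day 1 and 169, 199 and 266 at day 6, a fall of 0.55 (adjusted p = 0.016) that did not pass without day 1 replicate 1 (adjusted p = 0.10), day 1 replicate 2 (adjusted p = 0.06) or day 6 replicate 1 (adjusted p = 0.077).

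The Myl9 promoter is shown because it carries the CArG box, the element bound by Srf, in a gene of this group. RefSeq (GRCm38.p6) places this window, 250 bases before to 50 after the gene start, at chr2:156775214-156775513 on the plus strand, and the capitals mark the CArG box.
Myl9: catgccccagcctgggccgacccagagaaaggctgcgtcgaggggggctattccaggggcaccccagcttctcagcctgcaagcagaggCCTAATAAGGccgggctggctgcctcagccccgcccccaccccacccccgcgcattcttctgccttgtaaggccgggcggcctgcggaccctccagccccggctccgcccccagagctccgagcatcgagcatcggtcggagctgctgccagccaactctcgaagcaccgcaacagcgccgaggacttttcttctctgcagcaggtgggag
A CArG box on either strand was found in 4 of the 14 promoters matched to 13 of the 17 contractile genes (28.6%), and in 1.63% of all 32851 promoters in the table. The genes with a match were Cnn2, Myl9, Srf and Vcl. A match is a description of letters in this window.

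A part of the fibroblast and matrix genes was lower at day 6. Among 33 collagens and matrix proteins, 9 were called lower and 3 higher (27.3% and 9.09%, against 19.3% and 18.2% of all genes), with a median of -0.33. Lox, which cross-links collagen and elastin, was 4224 and 3499 at day 1 and 437, 352 and 395 at day 6, or -3.29 ± 0.24 (adjusted p = 1.9e-08). Col12a1, a collagen of fibril surfaces, was 7086 and 7086 at day 1 and 1034, 951 and 1068 at day 6, or -2.80 ± 0.31 (adjusted p = 2.5e-06). Fbln2 (fibulin), Bgn (biglycan) and Loxl1 (a relative of Lox) fell by 2.83, 2.41 and 2.24. The opposite direction was seen for Col14a1, another fibril-associated collagen, with 50 and 37 at day 1 and 641, 559 and 482 at day 6, or 3.66 ± 0.57 (adjusted p = 8.1e-05). The main fibrillar collagen Col1a1 was 5616 and 5616 at day 1 and 3012, 2178 and 2802 at day 6 and missed the test at -1.09 ± 0.45 (adjusted p = 0.064), and Fn1 (fibronectin) was listed at 9308 in all 5 libraries. The called members were 1 up and 6 down without day 1 replicate 2.

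In the list of fibroblast identity, 9 of 26 tested genes were called lower and 2 higher, with a median of -0.51. These are 34.6% and 7.69%, against 19.3% and 18.2% of all genes. Fbln5, an elastic fibre protein, was 1140 and 1194 at day 1 and 161, 168 and 176 at day 6, or -2.79 ± 0.35 (adjusted p = 1.0e-05). S100a4 (a calcium-binding protein also called fibroblast-specific protein) was 1206 and 1185 at day 1 and 278, 272 and 298 at day 6, or -2.08 ± 0.31 (adjusted p = 5.2e-05). Prrx1, a homeobox factor of limb mesenchyme, was 1576 and 1118 at day 1 and 759, 577 and 527 at day 6, or -1.11 ± 0.23 (adjusted p = 9.1e-04). Days did not overlap for these genes. Mfap5 (a microfibril protein) fell by 4.19 and Cd44 (the hyaluronan receptor) by 1.14. Vim (vimentin) was at the ceiling in all 5 libraries, and Zeb1, Dcn and Fap missed the test. Fewer members were called when either day 1 library was left out, in part because Mfap5 was then below the filter and not tested. Eln, the elastin gene, did not reach the filter, with values from 0 to 9 in OA against 814 in the MEF library.

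Genes that respond to TGF-beta, a growth factor that drives matrix and contractile genes, were mostly lower at day 6. Of 17 tested, 9 fell and 2 rose (52.9% and 11.8%, against 19.3% and 18.2% of all genes), and the median was -1.04. Smad7, the inhibitory Smad, was 152 and 152 at day 1 and 18, 27 and 25 at day 6, or -2.67 ± 0.37 (adjusted p = 2.2e-05). Ctgf, a matricellular protein, was 4214 and 5612 at day 1 and 1062, 1094 and 1614 at day 6, or -1.98 ± 0.47 (adjusted p = 0.0031). These days did not overlap. Cyr61, a relative of Ctgf, fell by 1.65 and Ltbp2, a latent TGF-beta binding protein, by 1.98. Tgfbi, a secreted adhesion protein, rose from 116 and 73 to between 662 and 802, or 2.95 ± 0.40 (adjusted p = 2.2e-05). The ligand Tgfb1 missed the test.

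In the BMP list, 6 of 17 genes fell and 1 rose, with a median of -1.27. These are 35.3% and 5.88%, against 19.3% and 18.2% of all genes. Dlx2, a homeobox gene, was 44 and 57 at day 1 and 0, 0 and 0 at day 6, and is listed at 0 in all day 6 libraries. Bambi, a decoy receptor, was 52 and 52 at day 1 and 8, 7 and 4 at day 6, or -2.90 ± 0.56 (adjusted p = 5.9e-04). The direct targets Id1 and Id3, inhibitors of helix-loop-helix factors, missed the test at -1.27 ± 0.61 (adjusted p = 0.11) and -0.59 ± 0.42 (adjusted p = 0.29). Fewer members were called when either day 1 library was left out, in part because Dlx2 and Bambi were then below the filter and not tested.

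Immediate early genes, which respond to growth factors and stress, and secreted factors of senescent cells were lower on balance. Of 24 immediate early and AP-1 genes, 12 fell and 1 rose (50% and 4.17%, against 19.3% and 18.2% of all genes). Fosl1, an AP-1 subunit, was 738 and 696 at day 1 and 124, 102 and 110 at day 6, or -2.67 ± 0.56 (adjusted p = 0.0012). Dusp5, a phosphatase of ERK kinases, was 219 and 298 at day 1 and 54, 43 and 82 at day 6, or -2.13 ± 0.45 (adjusted p = 0.0011). Nr4a1, an orphan nuclear receptor, was 127 and 168 at day 1 and 30, 42 and 79 at day 6, or -1.63 ± 0.28 (adjusted p = 2.0e-04). All 3 lay lower in every day 6 library. Without day 1 replicate 1, day 1 replicate 2 or day 6 replicate 2 the counts were 1 up and 7 down, 1 up and 5 down and 1 up and 7 down.

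Of 29 senescence-associated secretory genes, 12 fell and 3 rose (41.4% and 10.3%, against 19.3% and 18.2% of all genes), with a median of -0.88. Cxcl1, a chemokine for neutrophils, was 134 and 124 at day 1 and 13, 15 and 14 at day 6, or -3.12 ± 0.39 (adjusted p = 7.7e-06). Ccl8, a monocyte chemokine, moved the other way and was 32 and 9 at day 1 and 638, 786 and 702 at day 6, or 5.28 ± 0.64 (adjusted p = 6.3e-06). Both genes had days that lay wholly apart. The counts were 3 up and 5 down without day 1 replicate 1 and 3 up and 4 down without day 1 replicate 2. The cell cycle inhibitors Cdkn2a and Cdkn1a, which act in senescence and the p53 response, were 104 and 116 at day 1 and 120, 138 and 142 at day 6 and 1616 and 1749 at day 1 and 1593, 1662 and 1936 at day 6, and both missed the test (adjusted p = 0.56 and adjusted p = 0.85).

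Mitotic genes were lower at day 6. Of 40 tested, 31 fell and none rose, against 19.3% of all genes called lower, and the median was -0.94. The medians of the same genes were -0.44 in ODR and -0.62 in OB, and no member passed the interaction tests. Anln, a scaffold of the cytokinetic ring, was 919 and 906 at day 1 and 318, 234 and 234 at day 6, or -1.81 ± 0.18 (adjusted p = 7.5e-07). Plk1, a mitotic kinase, was 448 and 382 at day 1 and 170, 172 and 122 at day 6, or -1.43 ± 0.22 (adjusted p = 6.4e-05). Cdc20, an activator of the anaphase-promoting complex, was 482 and 452 at day 1 and 163, 222 and 120 at day 6, or -1.51 ± 0.23 (adjusted p = 5.8e-05). Every day 6 library lay below both day 1 libraries in these genes. Cdk1, the mitotic cyclin-dependent kinase, fell by 0.81, Aurka (a spindle kinase) by 1.25 and Kif23 (a motor of the central spindle) by 1.40. Mki67, which encodes the proliferation antigen Ki-67, was 832 and 918 at day 1 and 1173, 1244 and 746 at day 6 and missed the test (adjusted p = 0.57), with the days overlapping.

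Promoters of Plk1 and Cdc20 are shown because both hold the CHR element (TTTGAA) and the CCAAT box, which are common in genes of late cell cycle. The RefSeq windows (GRCm38.p6) lie at chr7:122159185-122159484 on the plus strand and chr4:118437294-118437593 on the minus strand, and capitals mark both motifs on either strand.
Plk1: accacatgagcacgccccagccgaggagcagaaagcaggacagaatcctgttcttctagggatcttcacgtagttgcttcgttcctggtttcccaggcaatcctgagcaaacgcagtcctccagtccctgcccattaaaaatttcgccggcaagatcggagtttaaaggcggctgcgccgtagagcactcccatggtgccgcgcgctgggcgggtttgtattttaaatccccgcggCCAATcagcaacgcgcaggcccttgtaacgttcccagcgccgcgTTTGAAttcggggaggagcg
Cdc20: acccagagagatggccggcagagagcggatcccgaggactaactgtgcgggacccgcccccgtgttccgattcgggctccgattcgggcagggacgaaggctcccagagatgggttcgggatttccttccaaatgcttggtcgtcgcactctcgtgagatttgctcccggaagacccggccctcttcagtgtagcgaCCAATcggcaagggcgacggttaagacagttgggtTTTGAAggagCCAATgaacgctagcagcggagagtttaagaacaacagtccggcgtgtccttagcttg
TTTGAA was found in 27 of the 34 promoters matched to 33 of the 40 mitotic genes (79.4%) and in 17.9% of all promoters. CCAAT was found in 27 of 34 (79.4%) and in 37.4% of all. A promoter can count for both motifs.

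Replication genes moved less. Of 40, 17 fell (42.5%, against 19.3% of all genes) and none rose, with a median of -0.50. Rrm2, the inducible subunit of ribonucleotide reductase, was 1087 and 1098 at day 1 and 437, 408 and 380 at day 6, or -1.42 ± 0.16 (adjusted p = 2.5e-06). Orc1, of the origin recognition complex, was 106 and 85 at day 1 and 37, 37 and 30 at day 6, or -1.43 ± 0.16 (adjusted p = 2.7e-06). Their days lay apart, while Pcna, the sliding clamp of DNA polymerase, was 731 and 754 at day 1 and 634, 692 and 656 at day 6 and missed the test (adjusted p = 0.29). The counts were 0 up and 10 down without day 1 replicate 1 and 0 up and 8 down without day 1 replicate 2.

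**Figure D3:**
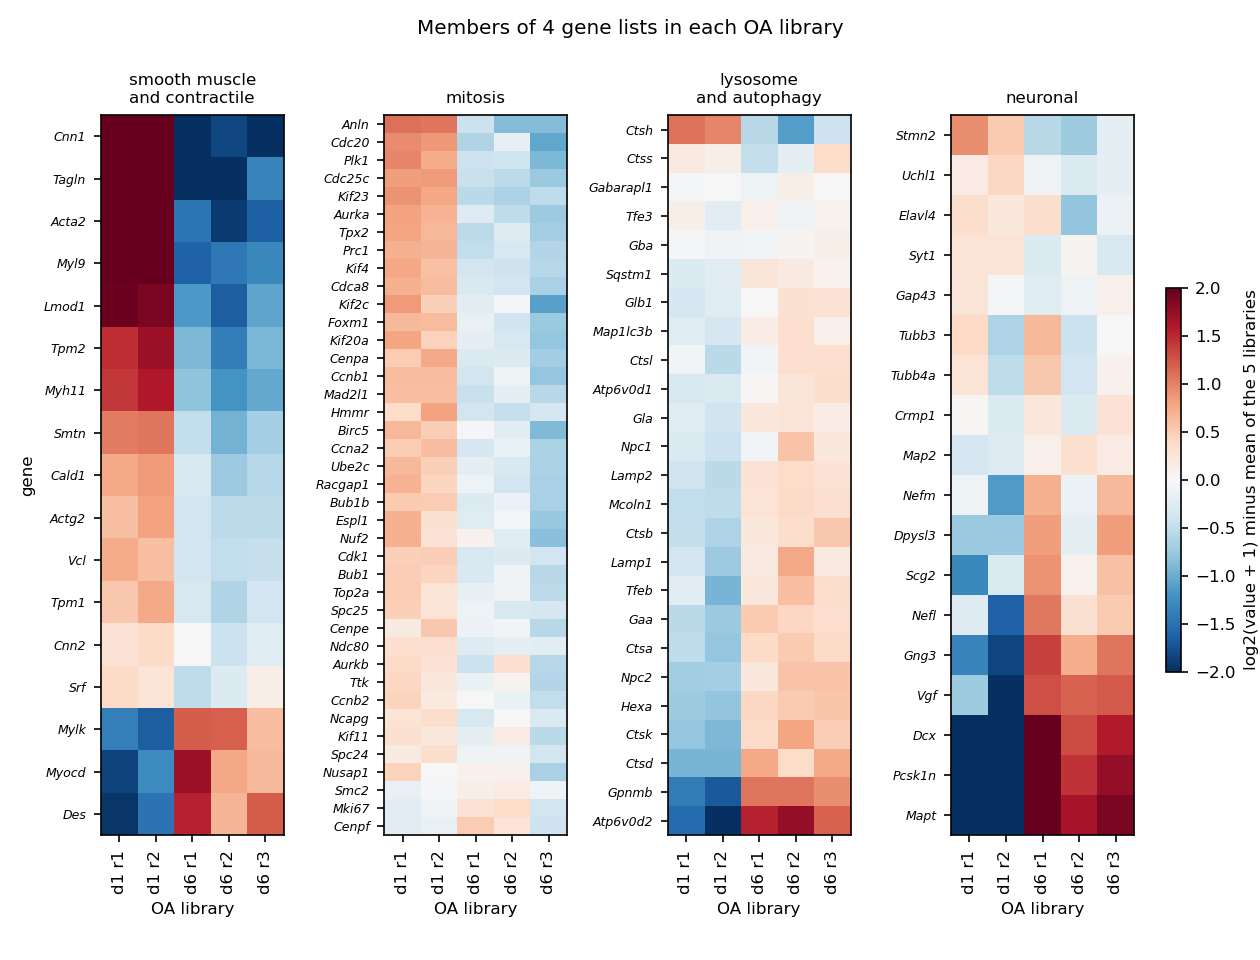
Each row is a gene of the contractile, mitosis, lysosome or neuronal list (a single lysosomal member is not drawn) and each column an OA library (d1 and d6 are days 1 and 6, r1 to r3 replicates), coloured by log2(value + 1) minus the gene's mean over the 5 libraries and clipped at 2 on either side. Contractile and mitotic genes are mostly red at day 1 and blue at day 6, and lysosomal genes the reverse; the top rows of the neuronal panel and the bottom rows of the contractile panel go against the rest of their list.

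Genes of several metabolic lists were called lower. Psat1 and Phgdh, enzymes of serine synthesis, were 1256 and 1534 at day 1 and 344, 382 and 374 at day 6 and 914 and 922 at day 1 and 432, 466 and 360 at day 6, or -1.92 ± 0.20 and -1.14 ± 0.15 (adjusted p = 9.8e-07 and adjusted p = 1.9e-05). Both lay lower in every day 6 library. Slc7a11, the cystine transporter, rose from 414 and 185 to between 788 and 1577, or 2.01 ± 0.39 (adjusted p = 5.8e-04). These are single genes of the integrated stress and amino acid list, in which 5 of 23 fell and 2 rose, with a median of -0.02. The 21.7% that fell is near the 19.3% of all genes. In the cholesterol list 9 of 23 genes fell and 1 rose, with Sc5d and Idi1, enzymes of sterol and isoprenoid synthesis, both falling by 1.09. Of 19 NRF2 and antioxidant genes 10 fell and 1 rose. Of 32 genes of glycolysis and the hypoxia response 12 fell and 5 rose, and of 36 of oxidative phosphorylation 9 fell and none rose. The shares called lower were 39.1% for cholesterol, 52.6% for NRF2, 37.5% for glycolysis and hypoxia and 25% for oxidative phosphorylation, the last near the 19.3% of all genes. The medians of these 4 lists lay between -0.54 for the NRF2 list and -0.19 for glycolysis and hypoxia. All 4 counts shrank without day 1 replicate 2. They were then 0 up and 4 down for cholesterol, 1 up and 5 down for NRF2, 1 up and 3 down for glycolysis and hypoxia, and 0 up and 2 down for oxidative phosphorylation. Without day 1 replicate 1 the cholesterol and glycolysis counts were 1 up and 4 down and 4 up and 5 down. Without day 6 replicate 1 they were 1 up and 5 down and 3 up and 7 down, and without day 6 replicate 2 the glycolysis count was 3 up and 6 down.

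Lysosomal and autophagy genes rose. Of 26 tested, 19 were called higher and 1 lower, against 18.2% of all genes called higher, and the median was 0.80. The medians were 0.89 in ODR and 0.92 in OB. Gpnmb, a membrane glycoprotein of lysosomes and melanosomes, was 916 and 752 at day 1 and 5077, 5078 and 4622 at day 6, or 2.57 ± 0.37 (adjusted p = 3.2e-05). Ctsd, an acid protease, was 2886 and 2886 at day 1 and 9301, 7091 and 9301 at day 6, or 1.56 ± 0.35 (adjusted p = 0.0018). Hexa, which degrades gangliosides, was 838 and 790 at day 1 and 1816, 1972 and 2015 at day 6, or 1.25 ± 0.16 (adjusted p = 1.2e-05). The days did not overlap in these genes. Npc2 (cholesterol export), Ctsa (a protective protease) and Gaa (acid alpha-glucosidase) rose by 1.14, 1.07 and 1.06. The lysosomal calcium channel Mcoln1 was 257 and 254 at day 1 and 436, 471 and 452 at day 6, or 0.82 ± 0.10 (adjusted p = 9.8e-06). Ctsh, a cathepsin, was the member that fell, with 58 and 54 at day 1 and 18, 12 and 20 at day 6, and missed the test without day 1 replicate 1 (adjusted p = 0.052). The list's counts were 10 up and 1 down without day 1 replicate 2. Macrophages are rich in lysosomes, and of 14 tested macrophage and leukocyte markers 6 fell and 1 rose (Cd68, a lysosomal protein, which missed the test without day 1 replicate 2, adjusted p = 0.071). The summed level of those markers went from 755 to 854 at day 1 and from 410 to 676 at day 6, and their part in the lysosomal change was not tested.

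The Ctsd and Mcoln1 promoters are shown because they hold CACGTG, the core of the CLEAR element recognised by Tfeb. The RefSeq windows (GRCm38.p6) lie at chr7:142387778-142388077 on the minus strand and chr8:3500269-3500568 on the plus strand, and capitals mark CACGTG, which reads the same on both strands.
Ctsd: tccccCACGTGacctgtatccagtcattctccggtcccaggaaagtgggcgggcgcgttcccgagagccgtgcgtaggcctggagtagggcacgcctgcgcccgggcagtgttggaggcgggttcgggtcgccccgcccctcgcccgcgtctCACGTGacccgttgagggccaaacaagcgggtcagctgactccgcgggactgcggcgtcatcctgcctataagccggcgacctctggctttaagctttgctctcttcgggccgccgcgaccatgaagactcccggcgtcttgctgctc
Mcoln1: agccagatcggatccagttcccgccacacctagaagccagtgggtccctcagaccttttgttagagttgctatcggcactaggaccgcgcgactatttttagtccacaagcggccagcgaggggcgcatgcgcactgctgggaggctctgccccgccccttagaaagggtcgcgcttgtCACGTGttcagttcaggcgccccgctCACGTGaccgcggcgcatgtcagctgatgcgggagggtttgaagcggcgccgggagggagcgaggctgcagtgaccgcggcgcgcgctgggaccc
CACGTG was present in 9 of the 24 promoters matched to 20 of the 26 lysosomal genes (37.5%) and in 7.15% of all promoters.

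Interferon-response and complement genes were higher at day 6. Of 33 interferon-response genes 12 rose (36.4%, against 18.2% of all genes) and none fell, with a median of 0.67. The median was larger in the other combinations, 1.73 in ODR and 1.01 in OB for the same genes, and no member passed the interaction tests. B2m, the light chain of MHC class I, was 3012 and 2178 at day 1 and 6244, 6244 and 6244 at day 6, or 1.29 ± 0.24 (adjusted p = 4.6e-04). Psmb8, an immunoproteasome subunit, was 6 and 5 at day 1 and 69, 52 and 31 at day 6, or 2.92 ± 0.27 (adjusted p = 3.4e-07). Irf1, an interferon-induced transcription factor, was 42 and 22 at day 1 and 124, 128 and 99 at day 6, or 1.90 ± 0.37 (adjusted p = 5.6e-04). Day 6 lay above day 1 in each. Tap1 (peptide transport for MHC class I) rose by 1.39, Parp14 (an ADP-ribosyltransferase) by 2.05 and Mx1 (an antiviral GTPase) by 1.91. Isg15 and Ifit3, typical interferon-stimulated genes, missed the test at 0.31 ± 0.54 (adjusted p = 0.68) and -0.31 ± 0.40 (adjusted p = 0.57). The counts were 6 up and 0 down without day 1 replicate 2.

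The B2m promoter is shown as an example with GAAA repeated after any 2 bases, found in elements bound by interferon regulatory factors. RefSeq (GRCm38.p6) places it at chr2:122147437-122147736 on the plus strand, and capitals mark the motif on either strand.
B2m: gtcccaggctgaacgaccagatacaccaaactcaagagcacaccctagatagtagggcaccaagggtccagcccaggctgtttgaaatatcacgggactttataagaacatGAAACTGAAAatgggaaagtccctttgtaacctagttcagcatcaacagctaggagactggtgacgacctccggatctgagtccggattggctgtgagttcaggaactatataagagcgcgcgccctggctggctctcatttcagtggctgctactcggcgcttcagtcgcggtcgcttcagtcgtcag
The motif was found in 13 of 29 promoters matched to 25 of the 35 listed interferon genes (44.8%), and in 3.44% of all promoters. Of the members called, 7 were matched, and the motif was found in 3 of their 8 promoters.

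Of 11 complement and acute phase genes 6 rose (54.5%, against 18.2% of all genes) and none fell. C1s1, a protease of the classical pathway, was 29 and 16 at day 1 and 768, 616 and 559 at day 6, or 4.83 ± 0.33 (adjusted p = 1.0e-08). C2, another protease of that pathway, was 26 and 32 at day 1 and 334, 331 and 356 at day 6, or 3.51 ± 0.41 (adjusted p = 3.6e-06). Each had all day 6 libraries above day 1. C1ra rose by 2.31, while C3, the central component, was 90 and 29 at day 1 and 70, 56 and 57 at day 6 and missed the test (adjusted p = 0.80). C1s1 and C1ra have close copies in the mouse genome, so their share of reads is uncertain.

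Neural genes were among the strongest risers, though many of the listed genes stayed below the filter. In the neuronal list 9 of 18 tested genes rose and 1 fell (50% and 5.56%, against 18.2% and 19.3% of all genes). The median was 0.76. The medians were -0.12 in ODR and 0.20 in OB, and no member passed the interaction tests. Mapt, the microtubule protein tau, was 2 and 1 at day 1 and 146, 67 and 79 at day 6, or 5.24 ± 0.58 (adjusted p = 2.3e-06). Pcsk1n, an inhibitor of a neuroendocrine protease, was 2 and 1 at day 1 and 134, 52 and 65 at day 6, or 4.99 ± 0.49 (adjusted p = 6.4e-07). Vgf, a secreted neuropeptide precursor, was 331 and 68 at day 1 and 1331, 1230 and 1268 at day 6, or 3.08 ± 0.49 (adjusted p = 9.1e-05). Day 6 libraries lay above day 1 in all of them, although the day 1 values of Vgf differed widely from each other. Dcx (doublecortin, of migrating neurons) was listed at 0 in both day 1 libraries and at 23, 13 and 16 at day 6. Stmn2, a tubulin-binding protein of axons, fell from 1856 and 1396 to between 590 and 846, and did not pass without day 1 replicate 1 (adjusted p = 0.074). The tubulin Tubb3 missed the test (adjusted p = 0.85). The list's counts were 6 up and 0 down without day 1 replicate 1.

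Of 25 neural progenitor genes 15 were below the filter, 4 of the other 10 rose and 1 fell. These are 40% and 10%, against 18.2% and 19.3% of all genes. Sox1, a transcription factor of the early neural plate, was 13 and 0 at day 1 and 592, 339 and 407 at day 6, or 6.86 ± 0.69 (adjusted p = 7.8e-07). Insm1, a zinc finger factor of neuroendocrine precursors, was 1 and 1 at day 1 and 145, 111 and 154 at day 6, or 6.09 ± 0.48 (adjusted p = 5.5e-08). Fezf1, a forebrain zinc finger factor, was 0 and 0 at day 1 and 60, 23 and 20 at day 6. These genes were at or close to 0 at day 1 in OA, and the MEF library lists all of them at 0. Without day 1 replicate 1 the counts were 3 up and 0 down. Genes of neuronal signalling from the leading risers had the same shape. Gria1, a subunit of AMPA glutamate receptors, was 2 and 0 at day 1 and 143, 98 and 98 at day 6, and Cacna1e, a calcium channel, was 2 and 0 at day 1 and 122, 98 and 113 at day 6. Pou3f1, a POU factor of epiblast and neural cells, was 1 and 3 at day 1 and 278, 176 and 85 at day 6, or 5.84 ± 0.71 (adjusted p = 6.0e-06).

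Single genes of retinoid handling and of insulin-like growth factors were called. Aldh1a3, which makes retinoic acid, was 22 and 14 at day 1 and 278, 226 and 224 at day 6, or 3.71 ± 0.28 (adjusted p = 2.9e-08). Dhrs3, which reduces retinal, was 32 and 30 at day 1 and 85, 66 and 82 at day 6, or 1.29 ± 0.29 (adjusted p = 0.002). The receptor Rarb missed the test (adjusted p = 0.20). In the retinoic acid list 4 of 13 genes rose and 1 fell, near the 37.5% called in either direction over all genes. The counts were 3 up and 0 down without day 1 replicate 1, and the same numbers were called when day 1 replicate 2, day 6 replicate 1 or day 6 replicate 2 was left out. Igf1, a growth factor, was 37 and 22 at day 1 and 272, 246 and 210 at day 6, or 3.04 ± 0.24 (adjusted p = 5.5e-08), whereas Igf2 was 3492 and 3172 at day 1 and 1312, 1124 and 1364 at day 6, or -1.40 ± 0.23 (adjusted p = 1.3e-04). Igfbp5 was 400 and 300 at day 1 and 3008, 2717 and 2410 at day 6, while Igfbp7 was 1205 and 1123 at day 1 and 87, 67 and 85 at day 6, changes of 2.96 ± 0.29 and -3.86 ± 0.45 in these binding proteins (adjusted p = 5.5e-07 and adjusted p = 3.5e-06). Alpl, tissue-nonspecific alkaline phosphatase, whose activity marks pluripotent colonies and bone cells, was 11 and 2 at day 1 and 264, 170 and 160 at day 6, or 5.01 ± 0.59 (adjusted p = 4.5e-06).

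Pluripotency genes were mostly not detected at a level the filter keeps. Of 29 listed, 18 stayed below it, and of the other 11 3 rose and 3 fell. These are 27.3% each, against 18.2% and 19.3% of all genes. Nanog was 1 and 3 at day 1 and 0, 3 and 0 at day 6, against 2802 in mESC. Sox2 was at most 6 in the OA libraries and 1508 in mESC, and Esrrb at most 5 against 2345. Tfcp2l1, a transcription factor of the naive pluripotent state, was the largest riser of the list with 7 and 4 at day 1 and 470, 345 and 252 at day 6, or 5.77 ± 0.43 (adjusted p = 2.3e-08), against 6244 in mESC. L1td1, an RNA-binding protein of stem cells, was 12 and 16 at day 1 and 92, 55 and 61 at day 6, or 2.21 ± 0.41 (adjusted p = 4.1e-04), and 1205 in mESC. Klf4, itself a reprogramming factor, was 186 and 216 at day 1 and 120, 49 and 68 at day 6, or -1.43 ± 0.35 (adjusted p = 0.0037). All 3 had days that did not overlap. Of the 1020 tested genes at least 4-fold higher in mESC than in MEF, 22.3% rose and 17.9% fell, with a median of -0.04. Of the 2038 at least 4-fold higher in MEF, 20.1% rose and 25.3% fell, with a median of -0.10. The mESC and MEF libraries have no replicate.

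Genes of the epithelial list, some of which come on when fibroblasts become epithelial during reprogramming, were mostly below the filter. Of 30 listed, 20 were below the filter, 1 of the other 10 rose and 2 fell, Krt19 (given above) among them. These are 10% and 20%, against 18.2% and 19.3% of all genes. The list's summed level was 1459 to 1526 at day 1 and from 1135 to 1358 at day 6. Cdh1 (E-cadherin) was at most 3 in OA against 3698 in mESC, and Epcam at most 10 against 399. Krt8 and Krt18, keratins of simple epithelia, were 27 and 20 at day 1 and 56, 38 and 47 at day 6 and 53 and 88 at day 1 and 38, 40 and 83 at day 6, and missed the test (adjusted p = 0.34 and adjusted p = 0.61). Itgb4, an integrin of basal epithelia from the keratinocyte list, was 21 and 11 at day 1 and 214, 190 and 238 at day 6, or 3.72 ± 0.31 (adjusted p = 1.2e-07). In that list 2 of 8 tested genes rose and 1, also an integrin, fell, with a median of -0.29. The keratins Krt5 and Krt14 were at most 1 in OA.

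Among endothelial and macrophage markers more genes fell than rose in the full fit, while trophoblast genes went both ways. Over all genes 19.3% fell and 18.2% rose. In the endothelial list 4 of 9 tested genes fell and 1 rose (44.4% and 11.1%), and in the macrophage list the shares were 42.9% and 7.14%. The summed level of the endothelial list went from 1153 to 1305 at day 1 and from 661 to 762 at day 6. The VEGF receptors Flt4 and Flt1 were 250 and 230 at day 1 and 14, 13 and 17 at day 6 and 124 and 93 at day 1 and 12, 11 and 3 at day 6, or -3.95 ± 0.27 and -3.67 ± 0.43 (adjusted p = 9.3e-09 and adjusted p = 4.7e-06). Both lay lower in every day 6 library, while Pecam1 and Cdh5, defining markers of endothelium, were at most 6 throughout. Complement C1q genes of macrophages (C1qa, C1qb and C1qc) fell by 3.47, 1.71 and 2.56, of which C1qb missed the test without day 1 replicate 2 (adjusted p = 0.15) or day 6 replicate 2 (adjusted p = 0.061). The macrophage counts were 1 up and 3 down without day 6 replicate 2. They were smaller still when either day 1 library was left out, in part because C1qa and C1qc were then below the filter and not tested. The endothelial counts were 1 up and 2 down and 0 up and 2 down without day 1 replicates 1 and 2, and 1 up and 2 down without day 6 replicate 1. Among trophoblast genes 3 of 8 fell and 2 rose (37.5% and 25%). That balance did not hold without day 1 replicate 1, in part because Prl8a6 was then below the filter and not tested. Prl3d3, a placental lactogen, was 218 and 236 at day 1 and 8, 0 and 6 at day 6. The prolactin-family genes have near-identical copies, and the split of reads among them is uncertain.

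A single gene of PRC1.1 was called. Of 12 PRC1.1 genes 1 fell (Yaf2, a Rybp relative) and none rose, against 19.3% and 18.2% of all genes. Pcgf1, the subunit that defines the complex, was 23 and 24 at day 1 and 16, 22 and 23 at day 6, Bcor, its corepressor, was 255 and 197 at day 1 and 226, 199 and 197 at day 6, and Rnf2, the ubiquitin ligase, was 202 and 192 at day 1 and 198, 171 and 149 at day 6. All 3 had overlapping days and missed the test (adjusted p = 0.76, adjusted p = 0.65 and adjusted p = 0.46). Of 16 other PRC1 genes 5 rose and 1 fell (31.2% and 6.25%, against 18.2% and 19.3% of all genes), or 3 up and 0 down without day 1 replicate 2. In PRC2, which methylates histone H3, 1 of 11 rose and 1 fell, and Ezh2, Eed and Suz12 missed the test. Dnmt3a, a de novo DNA methyltransferase, was 268 and 276 at day 1 and 490, 581 and 511 at day 6, or 0.95 ± 0.14 (adjusted p = 3.3e-05). Hox genes are known Polycomb targets, and of 16 HoxA and HoxB genes tested 2 fell and none rose, and of 11 HoxC and HoxD genes 1 fell and none rose, against 19.3% called lower over all genes. The Hox counts without day 1 replicate 1 were 0 up and 1 down and 0 up and 0 down. The PRC2 count was 0 up and 1 down without either day 1 library or day 6 replicate 3. Among 20 imprinted genes 5 rose and 3 fell (25% and 15%), near the 18.2% and 19.3% of all genes. The genes that follow are single genes of that list. H19, a noncoding RNA next to Igf2, was 641 and 602 at day 1 and 2178, 1472 and 1490 at day 6, or 1.44 ± 0.35 (adjusted p = 0.0038), the opposite direction to Igf2. The imprinted receptor Igf2r was 1696 and 1816 at day 1 and 2888, 3324 and 2623 at day 6, or 0.74 ± 0.12 (adjusted p = 1.1e-04).

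Smaller or less moved lists complete the account of those examined. The counts of members that rose and fell were 2 and 5 of 14 for Wnt-responsive genes, 1 and 2 of 10 for Notch, 1 and 5 of 25 for p53 targets, and 1 and 1 of 8 for CDK inhibitors. They were 2 and 4 of 16 for fatty acid genes, 0 and 1 of 5 for adipocyte genes, 2 and 5 of 23 for the integrated stress response, 1 and 1 of 16 for the unfolded protein response and 1 and 3 of 13 for heat shock. They were 3 and 1 of 12 for DNA methylation, 6 and 2 of 21 for histone demethylases and methyltransferases, 3 and 2 of 8 for primitive endoderm, 0 and 4 of 7 for mesoderm and 0 and 1 of 3 for germline. They were 1 and 3 of 10 for cartilage and bone, 0 and 3 of 4 for skeletal and cardiac muscle, 2 and 1 of 8 for keratinocyte and 3 and 4 of 12 for the IGF axis. No gene of the 2-cell-like list reached the filter. These counts are to be read against 18.2% higher and 19.3% lower over all genes. Fewer mesoderm and fewer skeletal and cardiac muscle genes were called when either day 1 library was left out. Acta1 of the muscle list was then below the filter and not tested. The single adipocyte and germline calls were lost without either day 1 library, and without day 6 replicate 1 germline had 0 up and 2 down. Without day 1 replicate 1, Wnt became 2 up and 1 down, fatty acid 1 up and 2 down, heat shock 1 up and 1 down, DNA methylation 2 up and 0 down, histone enzymes 3 up and 1 down, primitive endoderm 1 up and 1 down and trophoblast 2 up and 0 down. Without day 1 replicate 2 they became 1 up and 0 down for Wnt, 2 up and 1 down for fatty acid, 2 up and 0 down for DNA methylation, 3 up and 1 down for histone enzymes, 0 up and 1 down for primitive endoderm and 0 up and 1 down for CDK inhibitors. Without day 6 replicate 1, histone enzymes had 4 up and 1 down, primitive endoderm 1 up and 1 down and CDK inhibitors 0 up and 1 down.

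ODR and OB cultures moved in largely the same way. Of the 4701 genes called in OA, 4581 (97.4%) had the same sign in ODR and 4596 (97.8%) in OB, and the changes correlated over genes at r = 0.84 and 0.85, as a description in which genes are not independent. In ODR itself 1692 genes (13.5%) rose and 1723 (13.8%) fell, and in OB 2194 (17.5%) and 2329 (18.6%). The test of the difference in change called 9 genes between OA and ODR (0.0719%), with 701 at an unadjusted p below 0.05, and 19 between OA and OB (0.152%), with 937 unadjusted. The median SE of a difference was 0.31 and 0.28. Both tests use the same OA libraries.

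**Figure D4:**
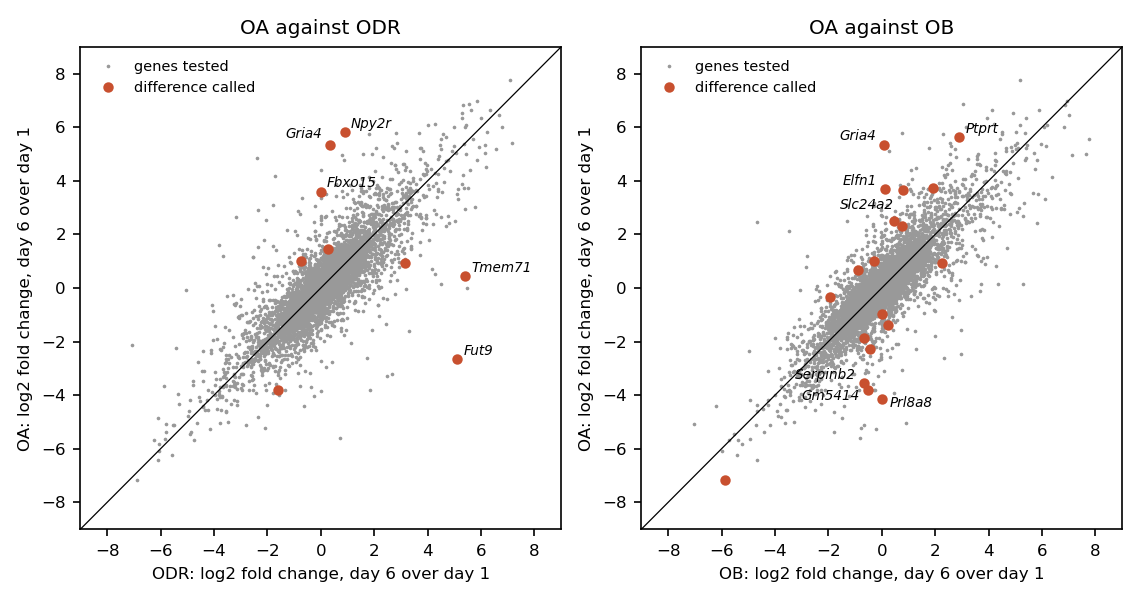
Log2 fold change from day 1 to day 6 in OA (vertical axis) against ODR (left) and OB (right) for the 12526 genes tested, with the line of equal change. Orange points are the 9 and 19 genes whose difference in change was called; names mark those that differ by more than 2.5, and most genes lie along the line.

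Between OA and ODR, 5 of the 9 genes had a higher change in OA and 4 a lower one. Npy2r, a receptor for neuropeptide Y, was 0 and 0 at day 1 and 94, 43 and 43 at day 6 in OA and 2 and 1 at day 1 and 2 and 6 at day 6 in ODR, a difference of 4.93 ± 0.68 (adjusted p = 0.011). Gria4, an AMPA receptor subunit, was 0 and 0 at day 1 and 50, 40 and 32 at day 6 in OA and 10 and 41 at day 1 and 16 and 44 at day 6 in ODR, a difference of 4.99 ± 0.84 (adjusted p = 0.022). Fbxo15, an F-box gene of pluripotent cells, was 0 and 0 at day 1 and 14, 11 and 9 at day 6 in OA and 1 and 1 at day 1 and 0 and 3 at day 6 in ODR, a difference of 3.60 ± 0.58 (adjusted p = 0.018). Npy2r, Gria4 and Fbxo15 were listed at 0 in both OA day 1 libraries, so the sizes depend on the 1 added before the log. Anxa2, a membrane-binding annexin, was 9306 and 9306 at day 1 and 18690, 18690 and 18690 at day 6 in OA and 9306 and 9306 at day 1 and 5620 and 5620 at day 6 in ODR, a difference of 1.73 ± 0.27 (adjusted p = 0.012) whose size is not exact because OA day 6 sits at the ceiling. Usp53, a ubiquitin-specific protease family member, differed by 1.18 ± 0.21 (adjusted p = 0.029).

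Among those with a lower change in OA than in ODR, Fut9, a fucosyltransferase that makes the Lewis x antigen, was 15 and 21 at day 1 and 12, 0 and 1 at day 6 in OA and 0 and 0 at day 1 and 28 and 40 at day 6 in ODR, a difference of -7.77 ± 1.16 (adjusted p = 0.012). Tmem71, a transmembrane protein, was 69 and 39 at day 1 and 105, 59 and 57 at day 6 in OA and 0 and 0 at day 1 and 51 and 34 at day 6 in ODR, a difference of -4.98 ± 0.73 (adjusted p = 0.012). ODR listed both at 0 at day 1, so these sizes too depend on the added 1, and OA did not. Igtp, an interferon-induced GTPase, was 25 and 28 at day 1 and 55, 44 and 55 at day 6 in OA and 13 and 7 at day 1 and 88 and 100 at day 6 in ODR, a difference of -2.24 ± 0.40 (adjusted p = 0.034). Gm5414, a predicted gene, was near 0 outside OA day 1, where it was 15 and 18, and differed by -2.21 ± 0.36 (adjusted p = 0.018). The background of calls was 0.0399% higher and 0.0319% lower. The number called was 2 without OA day 1 replicate 2, 4 without OA day 6 replicate 1 and 18 without ODR day 6 replicate 1. Npy2r and Tmem71 passed whichever library was left out, and Anxa2 and Fut9 missed only without OA day 1 replicate 2 (adjusted p = 0.051 for both). The highest adjusted p over these fits was 0.21 for Usp53 and Igtp, 0.14 for Gria4, 0.085 for Gm5414 and 0.069 for Fbxo15.

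Between OA and OB, 10 genes (0.0798%) had a higher change in OA, which need not be a rise in OA. Ptprt, a receptor tyrosine phosphatase of the nervous system, was 14 and 5 at day 1 and 544, 426 and 450 at day 6 in OA and 90 and 66 at day 1 and 638, 535, 658 and 527 at day 6 in OB, a difference of 2.72 ± 0.50 (adjusted p = 0.034). Abca8b, a lipid transporter of the ABC family, was 37 and 37 at day 1 and 482, 504 and 542 at day 6 in OA and 55 and 53 at day 1 and 164, 222, 208 and 246 at day 6 in OB, a difference of 1.82 ± 0.32 (adjusted p = 0.026). Plxna2, a semaphorin receptor, was 792 and 641 at day 1 and 671, 534 and 505 at day 6 in OA and 1148 and 1078 at day 1 and 285, 259, 324 and 291 at day 6 in OB, a difference of 1.61 ± 0.25 (adjusted p = 0.011). In each of these 3 genes both OA libraries lay below both OB libraries at day 1. Gria4 was 73 and 59 at day 1 and 72, 61, 71 and 78 at day 6 in OB, level over time, and differed by 5.26 ± 0.78 (adjusted p = 0.0064). Elfn1, a synaptic leucine-rich repeat protein, differed by 3.56 ± 0.59 (adjusted p = 0.015) and Camk1d, a calmodulin-dependent kinase, by 1.56 ± 0.27 (adjusted p = 0.026). Slc24a2, a potassium-dependent sodium-calcium exchanger, was 0 and 0 at day 1 and 8, 12 and 16 at day 6 in OA and 6 and 1 at day 1 and 5, 5, 5 and 7 at day 6 in OB and differed by 2.87 ± 0.54 (adjusted p = 0.036). Like Gria4 it was listed at 0 in both OA day 1 libraries, and these sizes depend on the 1 added before the log. Anxa2 was 6246 and 5620 at day 1 and 5083, 5083, 3999 and 5083 at day 6 in OB and differed by 1.31 ± 0.25 (adjusted p = 0.036), with OA day 6 again at the ceiling. Fam84a and A330023F24Rik differed by 1.57 ± 0.30 (adjusted p = 0.042) and 2.06 ± 0.37 (adjusted p = 0.029).

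For 9 genes (0.0719%) the change was lower in OA than in OB, which need not be a fall in OA. Igf2, a fetal growth factor, was 3492 and 3172 at day 1 and 1312, 1124 and 1364 at day 6 in OA and 4218 and 3993 at day 1 and 5077, 4621, 4621 and 5077 at day 6 in OB, a difference of -1.64 ± 0.32 (adjusted p = 0.043). Sema3e, a secreted axon guidance protein, was 1669 and 1398 at day 1 and 321, 296 and 327 at day 6 in OA and 607 and 671 at day 1 and 520, 460, 460 and 424 at day 6 in OB, a difference of -1.82 ± 0.26 (adjusted p = 0.0054). Serpinb2, an inhibitor of plasminogen activators, was 1398 and 1754 at day 1 and 142, 138 and 118 at day 6 in OA and 242 and 330 at day 1 and 214, 169, 170 and 157 at day 6 in OB, a difference of -2.88 ± 0.52 (adjusted p = 0.029). Igf2 in OB was higher in every day 6 library than at day 1, while in ODR it was 3492 and 3172 at day 1 and 1028 and 1096 at day 6. Prl8a8 was 25 and 11 at day 1 and 0, 0 and 0 at day 6 in OA and 0 and 0 at day 1 and 0, 0, 0 and 0 at day 6 in OB, a difference of -4.14 ± 0.41 (adjusted p = 4.6e-05), whose size depends on the 1 added before the log. For Prl8a8 and Prl8a6 both combinations were at 0 at day 6, so the difference lies in the day 1 level. Prl8a6 differed by -1.29 ± 0.11 (adjusted p = 4.7e-06) and Gm5414 by -3.29 ± 0.33 (adjusted p = 4.6e-05). Jam3, a junctional adhesion molecule, was 164 and 218 at day 1 and 434, 354 and 303 at day 6 in OA and 154 and 187 at day 1 and 812, 896, 826 and 719 at day 6 in OB, higher at day 6 in every library of both, and differed by -1.33 ± 0.26 (adjusted p = 0.046). Mmd, a membrane protein, differed by -1.01 ± 0.18 (adjusted p = 0.026), and Ust, a uronyl sulfotransferase, by -1.21 ± 0.20 (adjusted p = 0.015). Gria4, Anxa2 and Gm5414 were called against both ODR and OB, which is no independent support since the OA libraries are shared.

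The number called between OA and OB depended on single libraries. It was 2 without OA day 1 replicate 2, 9 without OA day 6 replicate 2, 7 without OA day 6 replicate 3, 4 without OB day 1 replicate 1, 42 without OB day 1 replicate 2, 8 without OB day 6 replicate 1 and 10 without OB day 6 replicate 3. Gm5414, Prl8a6 and Prl8a8 reach the filter only through the 2 OA day 1 libraries, so they were not tested when either was left out. They passed in the other fits, which cannot show whether the calls depend on a single OA day 1 library. Sema3e missed only without OB day 1 replicate 1 (adjusted p = 0.058). Igf2 missed in all 11 such fits, with adjusted p up to 0.20. The highest adjusted p over the leave-outs was 0.085 for Gria4 and 0.17 for Elfn1, Plxna2, Ust and Abca8b. It was 0.20 for Camk1d, Mmd and Serpinb2, 0.21 for A330023F24Rik, Anxa2 and Slc24a2, 0.26 for Ptprt, 0.29 for Fam84a and 0.32 for Jam3.

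**Figure D5:**
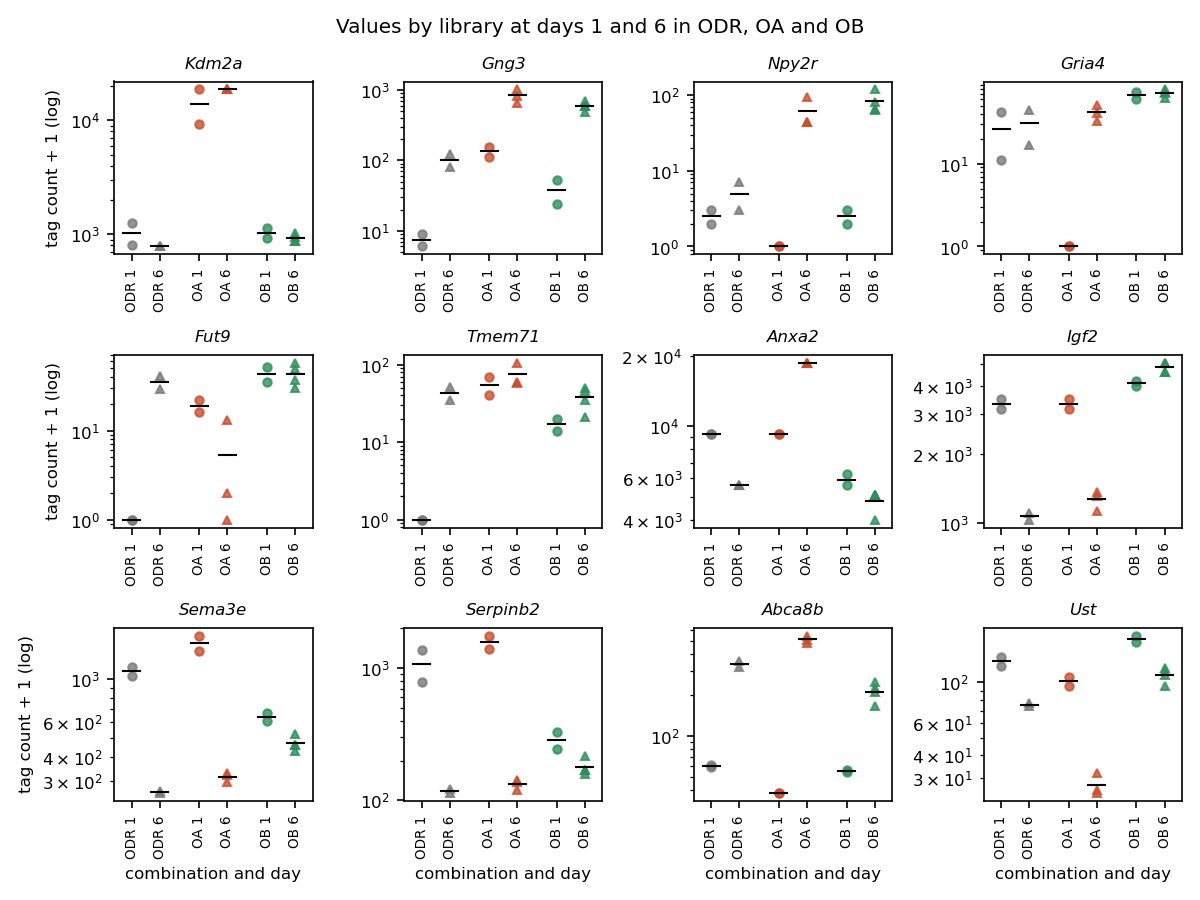
Normalized tag count plus 1 (log axes) in each library of ODR, OA and OB at days 1 and 6 for 12 genes, with circles for day 1, triangles for day 6 and a bar at the group mean. Kdm2a lies far higher in OA than in ODR or OB, Gria4 starts at 0 in OA and not in ODR or OB, and Igf2 falls in ODR and OA while OB lies between 3993 and 5077.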

How the data were processed

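Messenger RNA of 35 mouse libraries was sequenced. Per the submitters' processing notes, bcl2fastq, Bowtie2 2.2.5, RSEM and genome build mm10 were used. The authors deposited a table of 21350 genes that holds a normalized tag count score. How it was normalized is not stated there. Columns have nearly the same distribution, so depth is unknown and no counting interval can be given. A gene at 0 throughout a group is called listed at 0, and the size of a fold is not exact where values reach the ceiling of 18690.

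Values were analysed as log2(value + 1). Of the 21350 genes, the 12526 that reached 10 in 2 or more of the 5 OA libraries of days 1 and 6 were kept. A mean for each of 11 replicated groups was fitted to 27 libraries with limma 3.58.1 in R 4.3.3 (16 residual degrees of freedom, empirical Bayes moderation without trend), so a pooled spread is used. This is the test written for values that are not counts. Tests were two-sided with Benjamini-Hochberg adjustment over all genes tested. A library held under both ODR day 6 replicate 3 and ODR with BMP4 day 6 replicate 2 was left out of both groups, and a day 9 library held under 2 labels enters no test. The library labelled OA day 14 replicate 2 stands apart from its group and enters only the pooled spread.

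The genes named are Pou5f1, Kdm2a, Kdm2b and Gng3, and a choice from those that a rule gives: the 15 largest rises and the 15 largest falls among called genes with no overlap between days and a higher mean of 100 or more, up to 4 members by adjusted p in each direction of lists with at least 3 called members, and the leading interaction genes. The smaller interaction calls were named after their values were seen, and further list members by their role. Some list members are counted but not reported here by name. The members and gene lists were chosen with earlier results of these data known. Positions come from GENCODE annotation of GRCm38 and promoters from RefSeq GRCm38.p6. The gene test was tested on simulated data. Alternatives were another pseudocount, filter, scaling, moderation and set of groups, the shared library kept, a replicate block, and each library left out.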

Additional observations from a re-analysis of the deposited data

Results flagged for a closer look

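The day 1 to day 6 change differed between OA and ODR by the interaction test for 9 genes. On the log2 scale, OA minus ODR, the differences were 4.99 for Gria4, 4.93 for Npy2r, 3.60 for Fbxo15, 1.73 for Anxa2 and 1.18 for Usp53, and -2.21 for Gm5414, -2.24 for Igtp, -4.98 for Tmem71 and -7.77 for Fut9. Adjusted p-values from limma lay between 0.011 (Npy2r) and 0.034 (Igtp).

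Between OA and OB the test called 19 genes. OA minus OB, the differences were 5.26 for Gria4, 3.56 for Elfn1, 2.87 for Slc24a2, 2.72 for Ptprt, 2.06 for A330023F24Rik, 1.82 for Abca8b, 1.61 for Plxna2, 1.57 for Fam84a, 1.56 for Camk1d and 1.31 for Anxa2. They were -1.01 for Mmd, -1.21 for Ust, -1.29 for Prl8a6, -1.33 for Jam3, -1.64 for Igf2, -1.82 for Sema3e, -2.88 for Serpinb2, -3.29 for Gm5414 and -4.14 for Prl8a8. Adjusted p-values lay between 4.7e-06 (Prl8a6) and 0.046 (Jam3), and the smallest rest on genes listed at 0 in most libraries. No cause of these differences was tested.

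A single library lay apart from the other 3 of OB day 6 by Dixon's criterion for 2 of the named genes, Anxa2 with 3999 in replicate 3 and Slc24a2 with 7 in replicate 4. The other 3 values were tied, at 5083 for Anxa2 and 5 for Slc24a2, and the criterion then flags a gap of any size. A chance rate of about 1 in 20 groups does not hold for such ties. The OA groups are too small for that criterion.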

How the results depend on the processing

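The count of 4701 genes changed in OA kept within 1.5 times under every setting that keeps the OA libraries of days 1 and 6, from 4338 with only the OA groups fitted to 5383 without the library labelled OA day 14 replicate 2, and ran from 2667 to 4135 when an OA library of day 1 or 6 was left out. Centring each library on its median gave 4688 genes, 2307 up and 2381 down. The interaction counts are less stable. Against ODR the 9 calls became 28 with no filter on low values, 4 with only the groups of the comparison, 14 without the library labelled OA day 14 replicate 2 and 5 with an intensity trend, and ranged from 2 to 18 with a library left out. Against OB the 19 calls became 40 with pseudocount 5, 38 with no filter, 68 with only the groups of the comparison and 84 without that day 14 library, and ranged from 2 to 42 with a library left out. The causes were not tested.

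Replicate numbers are shared by 2 libraries of each day, and the main fit did not take them to pair the libraries. Deviations from the day means correlated at 0.14 for number 1 and -0.0059 for number 2. With 2 libraries at day 1 their deviations mirror each other, so these values cannot decide whether the numbers pair libraries. With a replicate block the calls were 4878 in OA, 6 against ODR and 16 against OB. No named gene result reversed under any setting run, but of 198 the number no longer called was 17 with only the groups of the comparison, 12 with the block, 8 with the intensity trend and 4 with pseudocount 5, and without OA day 1 replicate 2 it was 29 of 181. The oxidative phosphorylation list had 4 genes lower in the fit of only the OA groups and 15 with the block, against 9. Counts also moved for fibroblast identity (5 up and 12 down), collagens (5 and 14) and BMP (1 and 11) without the day 14 library. Depth is unknown, so low values cannot be given a counting error.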
